A study of Mus musculus with 1627 samples.

Results

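Klrg1, Lilrb4a and Lilr4b were followed through single regulatory T cells (Tregs) of the mouse spleen and of injured muscle, to give the level of each of these receptor genes in each library and to see whether they were found in the same cells. The members were the 3 rows that carry these symbols, of 23725 gene rows in the count table. They were chosen with their higher level in muscle known, so their difference between spleen and muscle is a description and carries no test. All cells came from male B6 Foxp3-Ires-Gfp mice aged 8 months, whose green fluorescent protein marks Foxp3-expressing cells, 4 days after their muscle was injured with cardiotoxin, which kills muscle fibres and sets off regeneration. Both tissues came from injured mice, so no group without injury was compared here. Live DAPI- TCRb+ CD4+ GFP+ cells were sorted, after mechanical dissociation of the spleen and digestion of the muscle with collagenase/dispase. The tissue and the way it was dissociated cannot be told apart.

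KLRG1 and gp49B, the product of Lilrb4a, restrain leukocytes. Inhibitory receptors carry an ITIM, a short tyrosine motif in the part of the protein inside the cell, which recruits the phosphatases SHP-1 (gene Ptpn6), SHP-2 (Ptpn11) and SHIP1 (Inpp5d) once the tyrosine is phosphorylated. KLRG1 is a C-type lectin-like receptor of differentiated T cells and natural killer cells that binds E-, N- and R-cadherin. The mouse Lilrb4 genes lie side by side as a pair of near copies. Lilrb4a encodes gp49B, an inhibitory receptor known from mast cells, macrophages and activated T cells, and Lilr4b encodes gp49A, its partner without an inhibitory tail.

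The sequences below show where the inhibitory motif sits and where the copies part. In the GENCODE M21 annotation of GRCm38, Klrg1 (ENSMUSG00000030114.8) covers chr6:122270596-122282882 on the minus strand and has a transcript of 5 exons and 1414 bases. Lilrb4a (ENSMUSG00000112148.1) covers chr10:51490956-51496611 and Lilr4b (ENSMUSG00000112023.1) chr10:51480632-51486703, both on the plus strand with 9 exons. A search of the coding frames for the ITIM pattern found it in exon 1 of Klrg1, which encodes the end of the protein inside the cell. In Lilrb4a it was found in exon 8 and in exon 9. In Lilr4b neither was found: exon 8 is 68 bases long against 66 in Lilrb4a, and the coding frame of 909 bases ends within it, against 1005 bases in Lilrb4a. Matches also lay at codons 54 to 59 of Klrg1 and at codons 8 to 13 of both copies, and a match is a description of the letters only. In the next lines, capitals mark the ITIM codons in Klrg1 exon 1 (chr6:122282730-122282811, minus strand) and Lilrb4a exon 9 (chr10:51496167-51496241), and the bases that differ between the copies in exon 8 of Lilrb4a (chr10:51495994-51496059) and of Lilr4b (chr10:51485713-51485780).
Klrg1 coding part of exon 1: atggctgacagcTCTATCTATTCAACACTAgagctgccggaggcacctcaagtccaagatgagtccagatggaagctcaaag
Lilrb4a coding part of exon 9: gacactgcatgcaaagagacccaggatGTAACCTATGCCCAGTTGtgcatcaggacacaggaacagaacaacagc
Lilrb4a exon 8: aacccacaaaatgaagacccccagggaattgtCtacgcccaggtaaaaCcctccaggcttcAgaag
Lilr4b exon 8: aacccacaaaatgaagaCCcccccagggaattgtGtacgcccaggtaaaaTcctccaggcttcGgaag

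The copies are alike over their whole length, which bears on how reads are counted. Of 1379 aligned transcript bases, 96.6% were identical, and in the last exon, where 3' counts fall, 97.9%. Of the 50-base windows of the Lilrb4a last exon, 49.3% occurred unchanged in Lilr4b, and of those of the longer Lilr4b last exon, 24.5% occurred in Lilrb4a. A read from such a window fits both genes. Both copies also lie within Gm49339, a protein-coding gene annotated on the same strand across them, and Lilrb4a overlaps the antisense gene Gm40645. The strand setting of the counting is not given in the sources used here, so the separate values of the copies are uncertain. Klrg1 has no overlapping gene.

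Counts came from 1 spleen library and 2 muscle libraries, which held 15.9%, 41.4% and 42.7% of the 1627 cells. They summed to 982570 unique molecular identifiers (UMIs, tags that count mRNA molecules) in spleen and to 1533277 and 1916496 in muscle libraries 1 and 2, and the median cell held 3541, 1976 and 2488 UMIs. Foxp3, which defines Tregs, had 368.4, 554.4 and 551.5 counts per 1000000 UMIs (CPM) in the spleen library and muscle libraries 1 and 2. Muscle libraries 1 and 2 had 11 cell barcodes in common, spleen and muscle library 1 had 1, and spleen and muscle library 2 had 0. Animals are not named in the labels, so each tissue stands as 1 sample, spleen and muscle were compared without a test, and all intervals are 95% intervals for counting error only.

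Klrg1 was the more abundant of the receptors in every library. Its level was 218.8 CPM in spleen (exact Poisson interval 190.5 to 250.1). Muscle library 1 had 955 Klrg1 UMIs, or 622.8 CPM (583.97 to 663.6), and muscle library 2 had 1715, or 894.9 CPM (853 to 938). The order was spleen, muscle library 1, muscle library 2, and no interval touched its neighbour. Over spleen this is a fold of 2.85 for muscle library 1 (exact conditional binomial interval 2.45 to 3.32) and of 4.09 for muscle library 2 (3.55 to 4.73). The muscle libraries themselves differed by 1.44-fold (1.33 to 1.56).

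**Figure D1:**
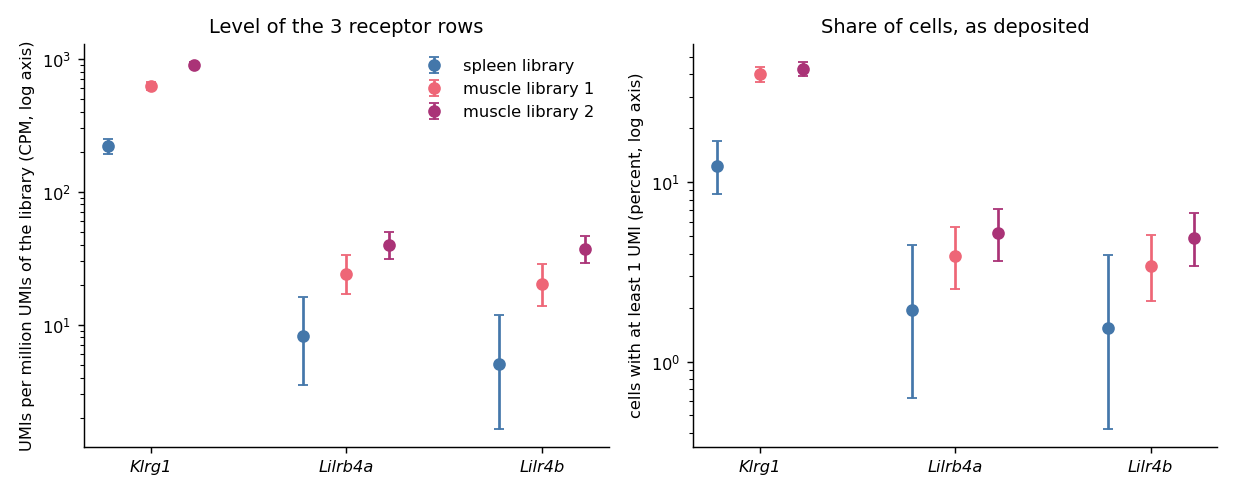
Level of Klrg1, Lilrb4a and Lilr4b in CPM (left, log axis, exact Poisson 95% intervals) and percent of cells with at least 1 UMI (right, log axis, exact binomial 95% intervals), 1 point per library. For all 3 genes the points go up from spleen to muscle library 1 to muscle library 2, with Klrg1 at 218.8, 622.8 and 894.9 CPM.

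More of the muscle cells carried Klrg1, while the level among the cells that carried it differed less between the tissues. At least 1 Klrg1 UMI was found in 32 spleen cells (12.4% of them, exact binomial interval 8.61 to 16.99), in 40.2% of cells of muscle library 1 (36.5 to 44.02) and in 42.9% of cells of muscle library 2 (39.2 to 46.7). Summed over those cells only, Klrg1 stood at 1447 CPM in spleen and at 1338 and 1795 CPM in muscle. The spleen value lay between those of the muscle libraries, in cells of unequal depth. With every cell thinned to 1000 UMIs, the mean number of Klrg1 UMIs in the cells that held any was 1.70 in spleen and 1.91 and 2.49 in muscle, so spleen lay below both.

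Spleen cells were sequenced deeper, so shares were also taken after this thinning, which left out 0, 26 and 7 cells. Klrg1 was then found in 8.88% of spleen cells (5.71 to 13.03), 29.9% of cells of muscle library 1 (26.4 to 33.6) and 34.8% of cells of muscle library 2 (31.2 to 38.5). The gap between tissues remained, and the lesser of the ratios of the muscle shares to the spleen share was 3.37. In every library the cells with Klrg1 were deeper than those without, with medians of 4305 against 3413 UMIs in spleen, 2218 against 1835 in muscle library 1 and 2803 against 2204 in muscle library 2.

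The spread among cells was wide. Klrg1 reached 23 UMIs in a spleen cell, 22 in a cell of muscle library 1 and 32 in a cell of muscle library 2, beside 9, 81 and 41 cells with exactly 1. In spleen, 13 cells (5% of cells) held 81.9% of all Klrg1 UMIs, against 35.6% in the top 34 cells of muscle library 1 and 33% in the top 35 of muscle library 2. Spleen therefore had few cells with Klrg1, and 8 of its 32 carried 10 or more UMIs.

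**Figure D2:**
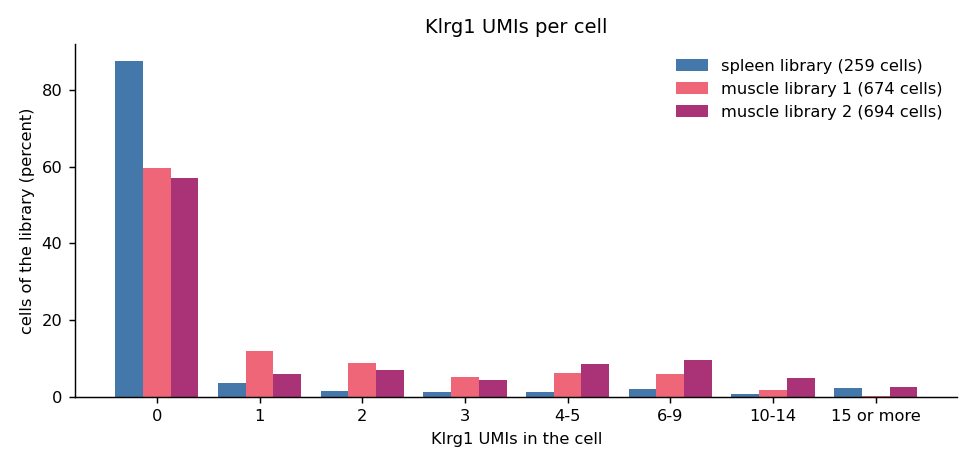
Percent of cells of each library (y axis) by the number of Klrg1 UMIs in the cell (x axis), 1 bar per library. The bar at 0 holds 87.6% of spleen cells, 59.8% and 57.1% of those of muscle libraries 1 and 2, and a few cells of each library lie at 15 or more.

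Lilrb4a and Lilr4b were much rarer. Lilrb4a, the gene of the inhibitory gp49B, had 8, 37 and 76 UMIs in spleen, muscle library 1 and muscle library 2, or 8.14 CPM (3.52 to 16), 24.1 CPM (17 to 33.3) and 39.7 CPM (31.2 to 49.6). Its folds over spleen were 2.96 (1.36 to 7.37) and 4.87 (2.35 to 11.7). Lilr4b, the gene of gp49A, had 5, 31 and 71 UMIs, or 5.09 CPM (1.65 to 11.9), 20.2 CPM (13.7 to 28.7) and 37.05 CPM (28.9 to 46.7).

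Its folds were 3.97 (1.53 to 13.1) and 7.28 (2.98 to 23.1). Both copies showed the order of Klrg1, but the intervals of the muscle libraries met or nearly met, and the spleen values rest on 5 cells for Lilrb4a and 4 cells for Lilr4b. In the muscle libraries 26 and 36 cells held Lilrb4a (3.86% and 5.19%), and 23 and 34 held Lilr4b (3.41% and 4.90%), against 1.93% and 1.54% of spleen cells. After thinning to 1000 UMIs, Lilrb4a was in 1.16% of spleen cells (0.240 to 3.35), 2.62% of those of muscle library 1 (1.54 to 4.17) and 3.35% in muscle library 2 (2.13 to 4.98). These intervals overlap, and the difference was not tested. Lilr4b was then in 0.386% of spleen cells (0.00977 to 2.13), on 1 cell. It was in 1.85% of those of muscle library 1 (0.960 to 3.21) and 1.89% in muscle library 2 (1.01 to 3.21), where the intervals also overlap that of spleen. All 3 members passed the minimum of 50 UMIs over the libraries and were higher than in spleen by 2-fold or more in each muscle library, a rule of size that 7.47% of 7617 genes met in this direction and 3.45% in the other (5.63% and 5.36% with ribosomal protein genes left out of the totals). Since the members were chosen on that contrast, nothing is read from their count.

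Lilrb4a and Lilr4b were counted in nearly the same cells. Of the 5 spleen cells with either copy 4 had both, as had 22 of 27 in muscle library 1 and 33 of 37 in muscle library 2. Of the muscle cells with Lilrb4a, 55 of 62 also held Lilr4b (88.7%, 78.1 to 95.3), and after thinning to 1000 UMIs 47.5% did. If the copies had been spread over cells independently, the product of their shares would give 0.0772, 0.887 and 1.76 cells with both.

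Their counts within a cell also ran close together. In the 64 muscle cells with either copy, 31 had equal numbers of both, 22 had more Lilrb4a and 11 had more Lilr4b, and the largest difference was 5 UMIs. Of the 23 muscle cells with a sum of 2 UMIs, all 23 had 1 of each copy, 0 had 2 of Lilrb4a and 0 had 2 of Lilr4b; in spleen 2 of 3 such cells had 1 of each. Pearson's r of the UMIs over cells was 0.805 in spleen and 0.926 and 0.869 in muscle, as a description over cells of 1 library that share depth and, given the identity of the copies, possibly reads. Lilr4b took 38.5% of the summed UMIs in spleen (13.9 to 68.4), 45.6% in muscle library 1 (33.5 to 58.1) and 48.3% in muscle library 2 (39.99 to 56.7). Expression of both copies in a cell and counting of 1 molecule in both rows cannot be told apart in these counts. If no read of the pair was dropped or counted for another gene, the number of its molecules lies between the larger row and the sum. Whether such reads were dropped is not given in the sources used here.

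**Figure D3:**
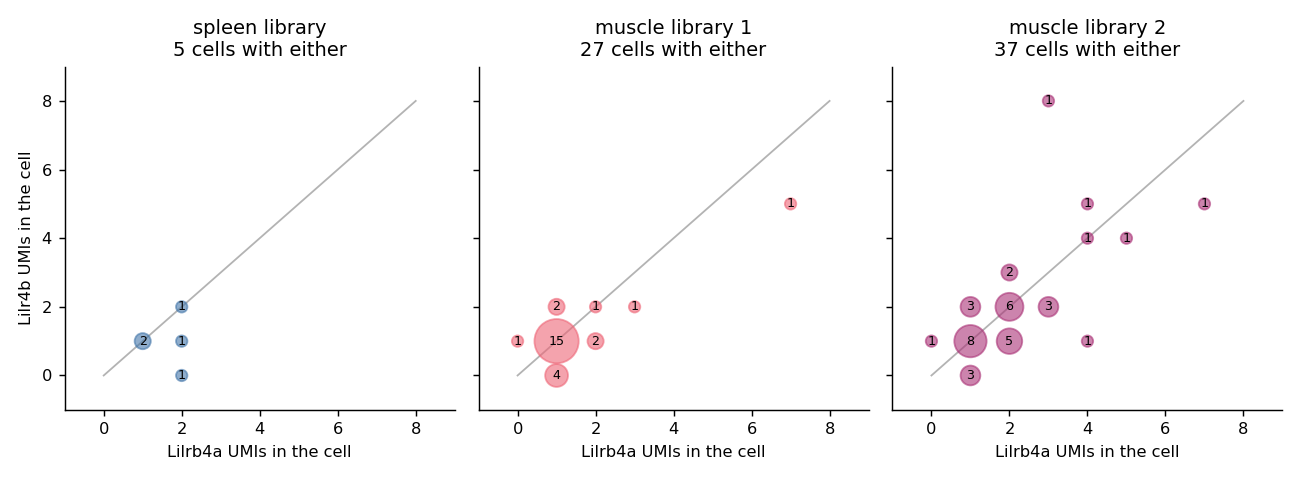
Lilrb4a UMIs (x axis) against Lilr4b UMIs (y axis) per cell in the 3 libraries, where each disc stands for the cells at that pair of counts, its area and number give how many, and the grey line marks equal counts. The cells gather along the line, and the fullest disc in the muscle libraries is 1 UMI of each, with 15 and 8 cells.

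The cells that held both Klrg1 and the Lilrb4 pair numbered about what their frequencies give. Both were found in 1 spleen cell, 13 cells of muscle library 1 and 14 cells of muscle library 2, where the product of the shares gives 0.618, 10.9 and 15.9. Over the muscle libraries the observed number was 1.01 times the product (exact Poisson interval 0.665 to 1.47). In muscle library 1, 4.80% of cells with Klrg1 held Lilrb4a or Lilr4b (2.58 to 8.06) and 3.47% of cells without it (1.91 to 5.76).

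In muscle library 2 the order was the other way round, with 4.70% (2.59 to 7.76) and 5.81% (3.72 to 8.59). At equal depth of 1000 UMIs the numbers were 8 and 8 cells, where the product gives 5.69 and 9.39. A departure of either sign within the stated interval cannot be seen with so few cells. The Klrg1 level in cells with and without the pair was 820.9 and 613.5 CPM in muscle library 1, a ratio of 1.34 (1.01 to 1.75), and 924.5 and 893 CPM in muscle library 2, a ratio of 1.04 (0.842 to 1.26).

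In spleen, cells with Klrg1 carried higher levels of effector and tissue Treg genes than cells without it. Of 21 such genes measured with at least 50 spleen UMIs, 14 were at least 2-fold higher among the 32 cells with Klrg1 and 0 were lower, where 9.40% of 3287 genes were higher by this rule. Their median log2 ratio was 1.17, against 0.00 over all genes. Gzmb, the gene of granzyme B, a protease that kills target cells, stood at 1649 CPM with Klrg1 and 27.6 CPM without it, and 12 of the 14 spleen cells with a Gzmb UMI also held Klrg1. Ccr2, a chemokine receptor of inflammatory homing, stood at 787.6 and 71.9 CPM, in 9 of 32 cells with Klrg1 and 10 cells without it (4.41%).

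Areg, the gene of the tissue-repair factor amphiregulin, stood at 794 CPM with Klrg1 and 136.7 CPM without it. S100a6, a calcium-binding protein of activated T cells, stood at 5069 and 754 CPM, and was found in 25 of 32 cells with Klrg1 and 23.3% of those without it. Il1rl1, which encodes the interleukin-33 receptor ST2, had only 21 spleen UMIs, in 4 cells with Klrg1 and 7 without it. In the thinned cells Gzmb was found in 30.4% of spleen cells with Klrg1 (13.2 to 52.9) and 2.54% of cells without it (0.939 to 5.45). For Areg the shares were 17.4% (4.95 to 38.8) and 8.90% (5.59 to 13.3), and for Id2 13.04% (2.78 to 33.6) and 10.6% (6.97 to 15.2). For both genes the intervals overlap, and the differences were not tested. Il1rl1 was in 0 of 23 cells with Klrg1.

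Markers of natural killer and CD8 T cells, which also carry KLRG1, were counted in the same 32 spleen cells. The list of 9 markers summed to 181.7 CPM with Klrg1 and 106.7 CPM without it. At least 1 marker UMI was found in 25% and 22.5% of cells. Not every marker was higher: the 1 with at least 50 spleen UMIs had a log2 ratio of -0.20. Gzma, the gene of granzyme A, stood at 53.85 and 2.40 CPM, a ratio of 22.5 (4.48 to 217.1), and Klrb1c, the gene of the receptor NK1.1, at 40.4 and 9.59 CPM, a ratio of 4.21 (1.20 to 13.8). The 1 UMI of Ncr1 in spleen lay in a cell with Klrg1, while Eomes and Cd8a were at 0 in such cells. The 3 spleen UMIs of Klrd1, which is not on the list, also lay in cells with Klrg1. Spleen cells with a UMI of any of the 9 listed markers were then left out, an alternative chosen after the values were seen. This left 24 cells with Klrg1, and 9 of 19 effector and tissue Treg genes were higher, where 9.74% of 2496 genes were. Gzmb then stood at 1798 and 36.7 CPM and Ccr2 at 786.5 and 95.7 CPM, and 6 of 11 resting lymphoid genes were lower, where 15.9% of genes were.

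Genes of resting lymphoid T cells were lower in the same spleen cells. Of 11 measured, 6 were at least 2-fold lower with Klrg1 and 1 was higher, where 13.3% of genes were lower, and the list's median log2 ratio was -1.11. Ccr7, the lymph node homing receptor, stood at 80.8 CPM in cells with Klrg1 and 532.4 CPM in cells without it, and was found in 2 of the former and 93 of the latter (41% of them). Tcf7, a transcription factor of resting T cells, had 0 UMIs in the 32 cells, against 151.1 CPM and 61 cells (26.9%) without Klrg1. Satb1, a chromatin organiser, stood at 60.6 and 448.4 CPM, and Bcl2, a survival gene, at 20.2 and 105.5 CPM. The gene that was higher was Il7r, the interleukin-7 receptor, at 531.8 and 257.8 CPM. These spleen values come from 1 library with no repeat and 32 cells.

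In muscle the same split gave smaller ratios, over many more cells. Of 35 effector and tissue Treg genes, 3 were higher with Klrg1 by 2-fold or more in each muscle library and 0 were lower, where 0.621% of 6929 genes were higher and 0.563% lower. The list's median log2 ratio was 0.38, against -0.01 over all genes, and 24 of its genes had a ratio above 1 in both libraries while 3 had a ratio below 1 in both. The genes past the rule were Ccr1, a chemokine receptor, Havcr2, which encodes the inhibitory receptor TIM-3, and Pparg, the nuclear receptor of fat-tissue Tregs.

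Gzmb stood at 3033 CPM with Klrg1 and 1801 CPM without it in muscle library 1, a ratio of 1.68 (1.58 to 1.80), and at 2597 and 1702 CPM in muscle library 2, a ratio of 1.53 (1.43 to 1.63). Il1rl1 stood at 278.9 and 145.2 CPM in muscle library 1 and at 257.5 and 110 CPM in muscle library 2, ratios of 1.92 (1.52 to 2.43) and 2.34 (1.85 to 2.96). Both were thus higher in cells with Klrg1 and plainly present in cells without it. Id2, a transcriptional regulator of effector Tregs, had ratios of 1.65 (1.47 to 1.86) and 1.78 (1.59 to 2.005), and Areg of 1.37 (1.16 to 1.62) and 1.47 (1.25 to 1.74). Itgae, which encodes the CD103 chain of an integrin that, like KLRG1, binds E-cadherin, had ratios of 0.923 (0.769 to 1.11) and 1.26 (1.09 to 1.46).

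The shares of cells with these genes were also taken at equal depth. In thinned cells Gzmb was found in 60.8% of cells with Klrg1 and 42.1% without it in muscle library 1, and in 60.3% and 34.8% in muscle library 2. Id2 was found in 50% and 28.9%, and in 38.5% and 26.3%. Il1rl1 was found in 15.5% (10.7 to 21.3) and 11.5% (8.67 to 14.7) in muscle library 1, where the intervals overlapped, and in 20.1% (15.2 to 25.7) and 10.7% (8.01 to 13.95) in muscle library 2. Havcr2 was found in 8.25% and 2.42% of cells in muscle library 1, but in 2.93% and 2.90% in muscle library 2. Itgae was found in 25.3% and 24.9%, and in 26.8% and 22.8%, with intervals that overlapped in each library, and the difference was not tested.

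Of 8 resting lymphoid genes measured in muscle, 0 were past the rule in either direction, 6 had a ratio below 1 in both libraries, and the list's median log2 ratio was -0.42. Ccr7 stood at 33.6 and 59.8 CPM in muscle library 1 and at 30.4 and 81.15 CPM in muscle library 2, with and without Klrg1. Of 9 Treg identity genes measured in muscle, 0 were past the rule. In spleen 1 of 9 was lower with Klrg1 (Gpr83), where 13.3% of 3287 genes were lower, so nothing is read from it. Foxp3 had muscle ratios of 0.864 (0.753 to 0.992) and 1.02 (0.902 to 1.15). Whether the split differs between spleen and muscle was not tested, since each tissue is 1 sample.

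**Figure D4:**
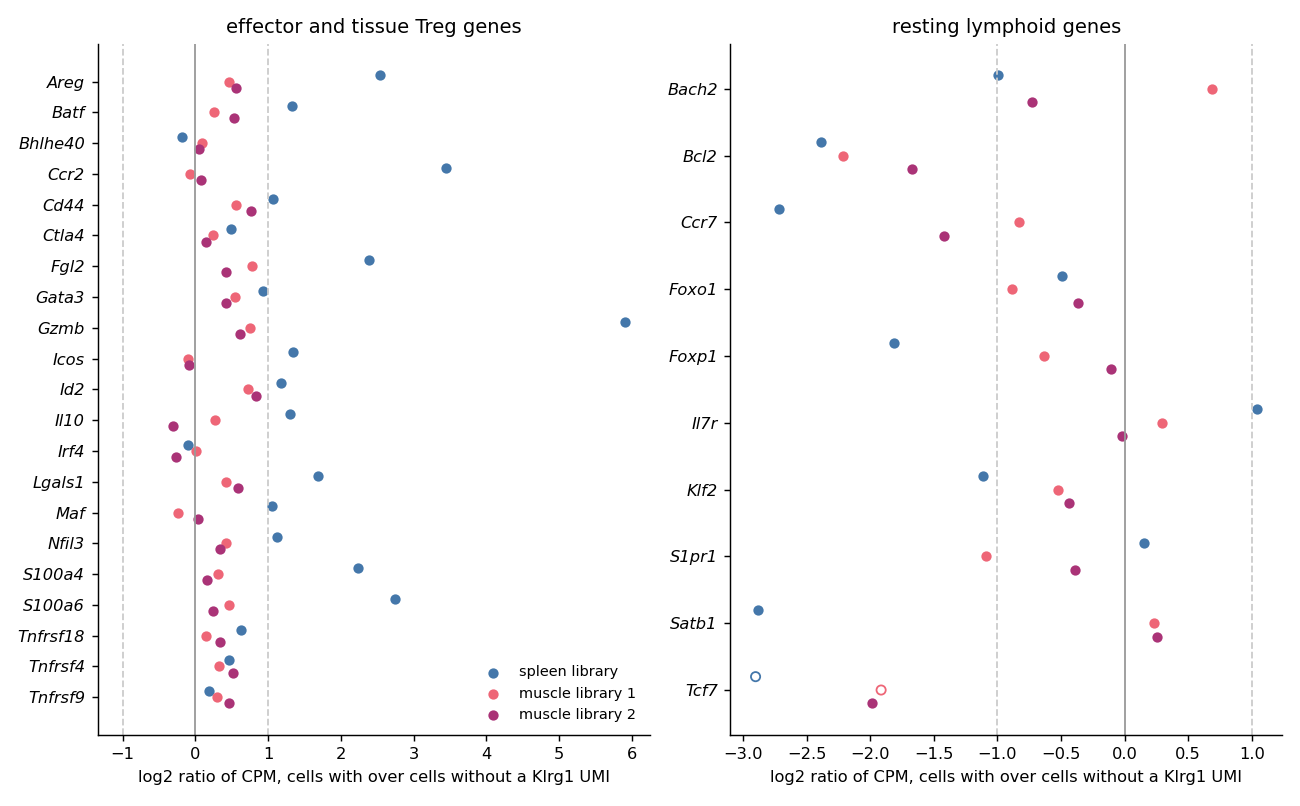
Log2 ratio of CPM in cells with over cells without a Klrg1 UMI (x axis) for effector and tissue Treg genes (left) and resting lymphoid genes (right) among those with at least 50 spleen UMIs, 1 point per library. Open points have 0 UMIs in cells with Klrg1 and stand at the floor of 3 counts, and dashed lines mark a 2-fold ratio. Most spleen points lie farther from 0 than the muscle points, with Gzmb farthest to the right.

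The same genes were followed by the number of Klrg1 UMIs in the cell. In muscle library 1, Gzmb went from 1801 CPM in cells with 0 Klrg1 UMIs through 2511 CPM with 1, 2985 CPM with 2 to 3 and 3396 CPM with 4 to 7, to 3242 CPM with 8 or more. In muscle library 2 it went from 1702 through 1887, 3116 and 2845 to 2231 CPM, so it did not go on increasing with Klrg1. Il1rl1 was highest in the last group of both libraries, at 413.2 and 336.4 CPM, from 145.2 and 110 CPM with 0 Klrg1 UMIs. The median depth of the groups went up as well, from 1835 to 3874 UMIs and from 2204 to 3722 UMIs, and its part in these values was not tested.

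**Figure D5:**
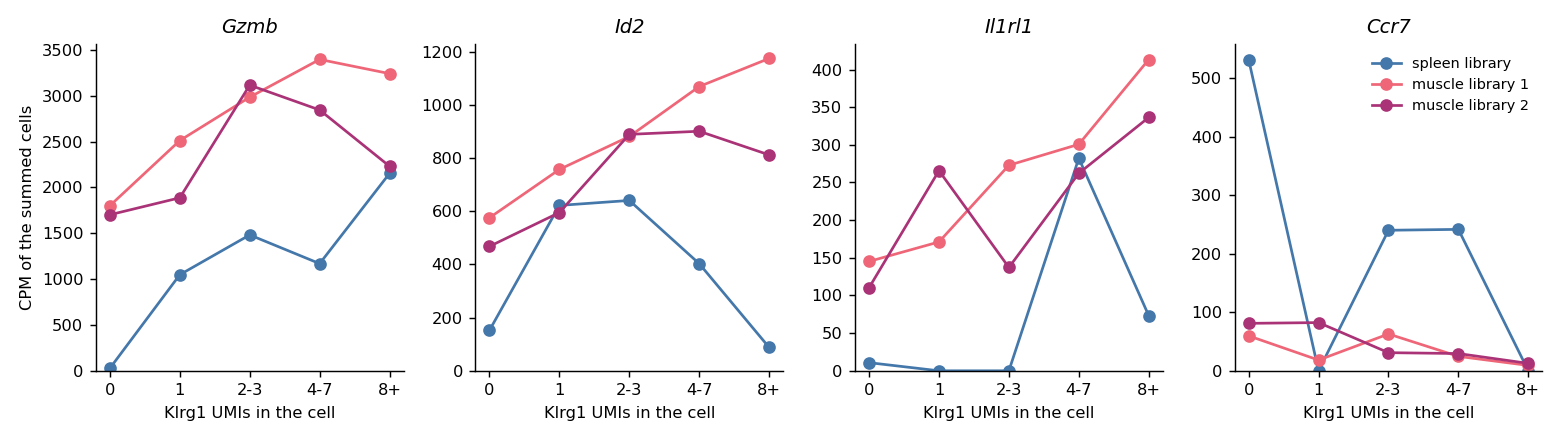
CPM of Gzmb, Id2, Il1rl1 and Ccr7 (y axes, each from 0) over summed cells grouped by Klrg1 UMIs (x axis), 1 line per library. Gzmb and Id2 lie lowest in the cells with 0 Klrg1 UMIs in both muscle libraries, and in spleen Gzmb is near 0 there (27.6 CPM) and above 1000 CPM in every other group.

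Over all genes tested, listed ones included, 43 were higher and 39 lower by the 2-fold rule in muscle cells with Klrg1. The 10 higher genes with the largest ratios among those with at least 100 UMIs were Pcsk1, Mt1, Tff1, Cxcl2, Ptpn5, Ccr1, Rgs16, Nrn1, Havcr2 and Jdp2. Pcsk1, which encodes a prohormone-cutting protease, stood at 44.8 CPM with Klrg1 and 10.98 CPM without it in muscle library 1, and at 60.7 and 12.5 CPM in muscle library 2, ratios of 4.08 (1.91 to 9.73) and 4.86 (2.58 to 9.95). Tff1, a secreted trefoil factor, had ratios of 3.21 (1.99 to 5.35) and 4.51 (2.85 to 7.42), and Mt1, a metal-binding metallothionein, of 3.24 (1.96 to 5.53) and 3.54 (2.21 to 5.90).

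These are rare transcripts: of Pcsk1, muscle libraries 1 and 2 held 41 and 70 UMIs. In spleen Pcsk1 and Tff1 had 0 UMIs, and Mt1 had 13. Cxcl2, a neutrophil-attracting chemokine, had muscle ratios of 2.95 (1.75 to 5.15) and 3.38 (2.31 to 5.05), and in spleen it stood at 242.3 CPM with Klrg1 and 15.6 CPM without it. Ccr1 had ratios of 6.39 (3.73 to 11.7) and 2.58 (1.57 to 4.38), and Havcr2 of 3.88 (2.36 to 6.66) and 2.42 (1.49 to 4.02).

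The lower genes were led by Tmem176b, a membrane protein of the MS4A type, at 12.6 CPM with Klrg1 and 67.1 CPM without it in muscle library 1, and at 18.8 and 108.2 CPM in muscle library 2. Its ratios were 0.188 (0.0817 to 0.383) and 0.174 (0.0993 to 0.289). Cybb, a subunit of the phagocyte oxidase, had ratios of 0.230 (0.0987 to 0.476) and 0.299 (0.169 to 0.505). Hspa1b, a heat shock protein, Fam101b and Stat2, an interferon-signalling factor, had ratios between 0.260 and 0.388. When the cells were thinned to 1000 UMIs before they were split, 4189 genes reached 50 UMIs, 21 were higher and 27 lower, and 6 and 5 of the calls above remained. The smaller log2 ratio of Pcsk1 went from 2.03 to 0.23 and that of Tff1 from 1.68 to 1.14. Those of Havcr2, Ptpn5 and Cxcl2 became 0.06, 0.32 and 0.57, and those of Cybb and Hspa1b each -0.77, all under 2-fold. The rest of these higher and lower genes stayed past 2-fold. With at least 2 Klrg1 UMIs as the rule for a positive cell, Tff1 (0.55), Havcr2, Ccr1, Rgs16 and Nrn1 were under 2-fold, and the rest were not.

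The gap between tissues was then taken among cells with and among cells without a Klrg1 UMI, a comparison chosen after the values were seen. Depth was not made equal here. The median cell without Klrg1 held 3413 UMIs in spleen and 1835 and 2204 in muscle libraries 1 and 2. Cells that express Klrg1 may thus be missed more often in muscle, which was not tested. Among cells without a Klrg1 UMI, 22 of 31 effector and tissue Treg genes were higher by 2-fold or more in each muscle library, where 7.02% of 6224 genes were higher and 3.57% lower, and their median log2 fold was 1.73. Among cells with Klrg1, 8 of 34 were higher, where 13.8% of 5089 genes were higher and 5.93% lower, and the median log2 fold was 0.60. The higher genes in cells with Klrg1 included Entpd1, Ccr1, Fgl2, Id2, Il1rl1, Tnfrsf9 and Tnfrsf4. Entpd1 and Ccr1 each had only 1 UMI in the spleen cells with Klrg1. Gzmb was not among the higher genes, at 1649 CPM in the spleen cells and 3033 and 2597 CPM in the muscle cells with Klrg1. In cells without Klrg1 it stood at 27.6 CPM in spleen and 1801 and 1702 CPM in muscle. The spleen side of the comparison among cells with Klrg1 is 32 cells.

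Across cells of each muscle library, no gene ran closely with Klrg1. Among 6930 genes, the 5 with the highest smaller Pearson's r of log-scaled counts were Gzmb (0.21 and 0.23 over the cells of muscle libraries 1 and 2), Id2 (0.21 and 0.20), Gm2a (0.19 and 0.20), Il1rl1 (0.17 and 0.20) and S100a6 (0.19 and 0.17). These are weak values in sparse counts from cells that share a library and its depth, and are given as a description. For Lilrb4a and Lilr4b the closest gene was the other copy (0.92 and 0.93). For their sum it was Haus3, a subunit of the spindle complex augmin, at 0.15 and 0.13, followed by Xab2, Rgl2, Erf and Rnf19a, all at 0.13 or less. Klrg1 had 0.02 and -0.02 with their sum.

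In muscle cells with Lilrb4a or Lilr4b, the effector genes taken as a list lay near the level of all genes. Of the 35 effector and tissue Treg genes, 0 were higher by 2-fold or more and 0 lower in the 27 and 37 positive muscle cells. Of 6928 genes, 1.43% were higher and 1.79% lower. The list's median log2 ratio was -0.04 against -0.03 over all genes. A count of 0 in the positive cells was set to the floor of 3, so rarer genes absent from them could not be called lower. Pparg, with 0 UMIs there in both libraries, was thus given a ratio of 1. Of the 35, 11 had a ratio below 1 in both libraries and 4 a ratio above 1 in both. The share of all genes that did so was not taken, so nothing is read from these counts. On the higher side, Il10 had ratios of 1.17 (0.596 to 2.09) and 2.68 (1.83 to 3.83). Cxcr6 had ratios of 0.680 (0.138 to 2.05) and 3.93 (2.53 to 5.95). Icos, a costimulatory receptor, had ratios of 0.748 (0.621 to 0.895) and 0.816 (0.706 to 0.939), Ccr2 of 0.657 (0.489 to 0.866) and 0.806 (0.655 to 0.981), and Lgals1, the gene of galectin-1, of 0.5999 (0.452 to 0.782) and 0.821 (0.687 to 0.973). Gzmb stood at 2117 CPM with and 2386 CPM without the pair in muscle library 1, and at 1541 and 2186 CPM in muscle library 2, a ratio of 0.705 (0.602 to 0.820). Il1rl1 had ratios of 1.34 (0.795 to 2.13) and 1.37 (0.897 to 2.02), and Foxp3 of 0.771 (0.517 to 1.11) and 1.01 (0.767 to 1.30). Of the 8 resting lymphoid genes, 0 were past the rule.

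With so few positive cells, the ratios past the rule rest on few molecules. The 10 higher genes with the largest ratios were Osgep, Phf8, Pank3, Anxa4, Pex16, Rgl2, Tmem63a, Ap1ar, Jade2 and St3gal2, and each had between 5 and 21 UMIs in the positive cells of a library. Pank3, an enzyme of coenzyme A synthesis, had ratios of 3.09 (1.71 to 5.26) and 2.73 (1.30 to 5.22). Its smaller log2 ratio, 1.45, became 0.91 in cells thinned to 1000 UMIs and 0.50 without cells bearing a marker UMI of another cell type, both under 2-fold. Thinning kept 11 of the 99 higher calls and 6 of the lower ones, and leaving out marker-bearing cells kept 9 and 14. The 5 lower genes that ranked first were Mbd1, Tmx3, Irf8, Tmc6 and Ebi3, each with 1 or 2 UMIs in the positive cells of a library. They need not be the most depleted, since a gene with 0 UMIs there was set to 3 and ranked behind them. In muscle library 1, Mbd1 had 1 UMI against 72.4 CPM without the pair, a ratio of 0.199. Ccr1 had 0 UMIs against 71.7 CPM and was given 0.602. Ebi3, a subunit of the Treg cytokine interleukin-35, had 1 and 2 UMIs there, with ratios of 0.201 (0.00504 to 1.14) and 0.210 (0.0252 to 0.773).

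The partners of the receptors were measured as well. Of 15 genes of ITIM signalling, all had at least 50 UMIs, and 1 was past the 2-fold rule in muscle, against 7.47% of all genes: Dok1, an adaptor that dampens kinase signals, with 7, 77 and 89 UMIs, 7.05-fold and 6.52-fold higher. Ptpn6 (SHP-1) stood at 107.9, 72.4 and 77.2 CPM in spleen and muscle libraries 1 and 2. Ptpn11 (SHP-2) stood at 50.9, 58.05 and 41.2 CPM. Inpp5d (SHIP1) stood at 86.5, 148.7 and 177.9 CPM, a fold of 1.72 and 2.06.

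Between muscle cells with and without Klrg1, 0 of the 15 were past the rule, and their median log2 ratio was -0.06. In the spleen split, of 10 of these genes with at least 50 UMIs, 1 was higher with Klrg1 and 2 were lower. Of all 3287 genes, 9.40% were higher and 13.3% lower, so nothing is read from these counts. Inpp5d was higher, at 168.3 and 71.9 CPM, on 25 UMIs with Klrg1. Ptpn6 was lower, at 26.9 and 122.3 CPM, on 4 UMIs with Klrg1. Pag1, an adaptor that recruits the inhibitory kinase CSK, had 0 UMIs with Klrg1 against 74.3 CPM. Between muscle cells with and without the Lilrb4 pair, 1 of the 15, Ptpn11, was lower by the rule, where 1.79% of 6928 genes were. Ptpn11 had 1 and 2 UMIs with the pair, with ratios of 0.240 (0.00600 to 1.37) and 0.412 (0.0491 to 1.54). Of the ligands, Cdh1 (E-cadherin) had 2, 2 and 4 UMIs and Cdh2 (N-cadherin) 0, 2 and 2. Itgav and Itgb3, the chains of the integrin that binds gp49B, stood at 78.4, 152.6 and 113.7 CPM and at 30.5, 50.2 and 70.4 CPM.

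Among 14 other inhibitory receptors measured, 3 were past the rule as higher in muscle (Ctla4, Havcr2 and Cd200r1) and 1 was lower (Cd96), against 7.47% and 3.45% of all genes. Between muscle cells with and without Klrg1, Havcr2 was higher and Cd96 lower, against 0.621% and 0.563% of all genes, the latter at 9.81 and 26.8 CPM in muscle library 1 and at 5.23 and 21.8 CPM in muscle library 2, on 7 and 5 UMIs in cells with Klrg1. In spleen Cd96 stood at 20.2 and 111.5 CPM. Pdcd1, the gene of PD-1, had ratios of 2.33 (1.53 to 3.6) and 1.32 (0.973 to 1.81), and Ctla4 of 1.19 (1.12 to 1.26) and 1.10 (1.04 to 1.18).

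Of 35 rows of the killer cell lectin-like family, Klrg1 with 2885 UMIs was the 1 row with at least 50 UMIs over the libraries, and 24 rows had 0. The next were Klra2 with 26, Klrb1c with 19 and Klrb1f with 18 UMIs. Of 8 rows of the Lilr and Pir family, Lilrb4a and Lilr4b were the ones above 50, 5 rows had 0 UMIs, and Pirb had 1.

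Mast and myeloid cells also carry the Lilrb4 receptors, and their markers were counted in the positive cells. Of 8 mast cell markers, 0 had a UMI in any cell with Lilrb4a or Lilr4b. Among cells without the pair, only 0.394%, 0.464% and 0.457% held such a UMI in spleen and muscle libraries 1 and 2. With so few positive cells, nothing is read from the 0. Of 19 myeloid markers, 3, 3 and 2 had a UMI in those cells of spleen, muscle library 1 and muscle library 2, with summed levels of 222.6, 288.1 and 228.9 CPM, against 401.2, 320.4 and 318.9 CPM in the cells without the pair. Lyz2, Csf1r, Fcgr3, Adgre1 and C1qa were at 0 in the positive cells of all 3 libraries. In the cells without the pair, Adgre1 was also at 0 in all 3 libraries. There Lyz2, Csf1r and Fcgr3 were at 0 in spleen, and C1qa in muscle library 1. Nothing is therefore read from the absence of these markers. Ms4a6c alone gave 18 of 20 and 24 of 26 of the UMIs in the positive muscle cells.

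In muscle, the markers of natural killer and CD8 T cells summed to 85.5 CPM in cells with Klrg1 and 87.8 CPM in those without it in muscle library 1, and to 82.7 and 93.6 CPM in muscle library 2. Nkg7, a granule protein gene of that list, stood at 49.05 and 20.7 CPM in muscle library 1, a ratio of 2.36 (1.29 to 4.50), and at 8.37 and 21.8 CPM in muscle library 2, a ratio of 0.383 (0.147 to 0.901). Ncr1 and Xcl1 were at 0 in all muscle cells. B cell markers summed to between 8.32 and 20.2 CPM in the 6 groups of cells, and mast cell markers to between 0 and 6.10 CPM. The libraries hold no cell type that should lack these receptors, so the share of cells with a UMI from free RNA was not measured here.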

How the data were processed

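Tregs were captured singly by inDrops, which barcodes oligo dT-primed mRNA in droplets, and sequenced on a NextSeq500, per the labels' protocols. The authors deposited a table of UMI counts per gene and cell. The submitters' processing notes name mm10, TopHat2 and SAMtools, without versions; their annotation, strand setting, UMI collapsing and cell filters were not stated. The counts summed to 98.7 to 98.8% of the UMIs that the labels state. Every cell was kept, and no doublet caller was run.

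CPM were taken from the UMIs summed over the cells of a library or group. Rates carry exact Poisson, shares exact binomial (Clopper-Pearson) and folds exact conditional binomial 95% intervals, which cover counting error only and leave out that UMIs cluster within cells. Cells are not replicates, so no test was run. A gene was past the rule when at least 2-fold higher or lower in both muscle libraries, among genes with at least 50 UMIs in the libraries compared; a count of 0 was set to a floor of 3, which never turned a direction. For equal depth, cells were thinned without replacement to 1000 UMIs (seed 1). Correlations used the natural log of 1 plus UMIs per 10000.

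The members, gene lists and alternatives were chosen with earlier results of these data known. Named are the members; for each split the 10 higher and 5 lower genes past the rule with the largest smaller ratio and at least 100 UMIs, without ribosomal, predicted and receptor segment genes; the 5 genes most like a member; family rows with at least 50 UMIs; and up to 6 members of each list plus those past the rule. The next rows of the families were named after their values were seen. Sequences and positions come from GENCODE M21 on GRCm38, the assembly that mm10 names, matched by symbol. Alternatives covered scaling (edgeR and DESeq2 supplied factors only), UMI minimum, thinning, the positive rule, deep cells, marker-bearing cells, shared barcodes and each muscle library alone. The tools were R 4.3.3 (edgeR 4.0.16, DESeq2 1.42.0) and, under Python 3.11.15, biopython 1.88, matplotlib 3.10.9, scipy 1.17.1, pandas 2.3.3 and numpy 2.4.6. Some members of the lists are not reported here by name or drawn.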

Additional observations from a re-analysis of the deposited data

How the results depend on the processing

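No paired analysis was possible because the numbers in the labels count cells and name no animal. The smaller log2 fold of each member over spleen stayed above 1 under all scaling, barcode and cell-filter alternatives and with thinning to 1000 UMIs. For Klrg1, 1.51 became 1.92 when thinned, 1.86 with equal weight per cell and 1.18 without cells bearing a marker UMI of another cell type, which left 73 spleen cells. Thinned to 1500 UMIs, Lilrb4a and Lilr4b each stood at 8.13 CPM in spleen and 13.2 CPM in muscle library 1, under 2-fold. In muscle library 2 they then stood at 42.8 and 36.2 CPM. The lesser ratio of muscle to spleen shares of cells was 2.26 for Lilrb4a at 1000 UMIs, 1.28 at 750 and 1.62 at 1500. For Lilr4b it was 4.80, 4.23 and 2.44. Totals without ribosomal protein genes shifted the median of all genes by -0.16 (log2). Counts of genes past the 2-fold rule are given as percent of the genes tested. For muscle over spleen, with 7.47% higher and 3.45% lower of 7617 genes, 5.36% were lower without ribosomal protein genes in the totals. A minimum of 10 UMIs gave 9.19% and 5.64% of 10741 genes, 200 UMIs 5.83% and 1.82% of 3620, and none 6.83% and 5.14% of 14543, while muscle libraries 1 and 2 alone gave 6.89% and 6.96% lower. The percent of muscle Lilrb4a cells with Lilr4b, 88.7, became 61.5, 47.5 and 65.7 when thinned to 750, 1000 and 1500 UMIs and 70.4 with at least 2 UMIs. The share of Lilr4b in the pair, 47.4%, was 22.2% in cells with 1 copy only. The Klrg1 split, 0.621% higher and 0.563% lower of 6929 genes, gave 1.57% and 1.07% of 9060 at a minimum of 20 UMIs, 0.168% and 0.101% of 2971 at 200, 0.895% lower with at least 2 Klrg1 UMIs, 0.501% higher of 4189 when thinned, and 4.04% and 4.78%, and 4.40% and 3.71%, in each muscle library alone. The Lilrb4 split, 1.43% and 1.79% of 6928 genes, gave 2.02% higher of 9059 at 20 UMIs, 0.336% and 1.75% of 2972 at 200, 1.12% lower of 4189 when thinned, 1.44% higher of 4157 without marker-bearing cells, and 11.1% and 12.4%, and 9.43% and 13.9%, in each muscle library alone. Without spleen cells bearing a natural killer or CD8 T cell marker UMI, an alternative added after the values were seen, 9 of 19 effector genes were higher with Klrg1 in spleen instead of 14 of 21. For shares with at least 2 UMIs after thinning, Lilrb4a and Lilr4b gave no value, since spleen and muscle library 1 were at or under the floor. The cause of these shifts was not tested.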
